A study of Mus musculus with 6 samples.

Results

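The data describe 9 genes of the agouti, endothelin and cyclic AMP (cAMP) pathways that control pigment cells, in mouse melanocytes in which Dicer, the enzyme that cuts microRNA precursors, was targeted. The genes are Asip, Atrn, Gnas, Prkacb, Creb1, Pde4b, Gpr161, Mc3r and Edn3. A gene was taken where a probe set of the deposited table carried its symbol alone, and the row of highest mean signal was kept. Of the 9 genes 8 had such a row, 1 each, out of 7486 genes with a probe set of their own. Asip shared its row with Raly, so no value is given for it.

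The cells were Melan-a, an immortal line of pigmented melanocytes from the C57BL/6 strain, which carries the nonagouti allele. All cultures were kept in medium with serum and the phorbol ester TPA. One group received a small interfering RNA against Dicer (siDicer) and the other a control siRNA (siScr), both by lipid and magnetic transfection, and RNA was taken 24 hours later. Each group held 3 arrays, called biological replicates by the submitters, at passages 47, 54 and 56, so that arrays of the same replicate number share a passage. Signals were read on mouse Clariom D arrays and deposited as log2 values. RNA integrity numbers ran from 9.7 to 10. Dicer1 was not analysed here, so the knockdown was not checked and the groups rest on their labels.

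Of 20 listed melanocyte markers 5 were measured, and Tyrp1 and Slc24a5, genes of melanin synthesis and of the melanosome, had the highest signals, at 12.85 and 10.66 on the log2 scale. Of these 5 markers 1 rose in siDicer cells, Mreg, whose values are given further on, and 4 did not pass. Over all probe sets 0.757% rose. Mean log2 signal over the fibroblast and papilla markers ran from 5.71 to 5.86 on siDicer and from 5.65 to 5.82 on siScr arrays (9 of 18 measured). In that list 1 gene rose and 8 did not pass, and single genes differed in both directions, from -0.21 for Sox2 to 0.52 for Lef1. Lef1, which encodes a Wnt-responsive transcription factor that melanocytes also use, had log2 signals of 7.62, 7.27 and 7.71 in siDicer cells and 7.15, 6.83 and 7.07 in siScr cells at passages 47, 54 and 56. Its groups did not overlap, and its adjusted p in limma was 0.0337 with replicate number as a block and 0.212 without it. The next highest signal of the list was that of Col5a1, a collagen chain, at 7.19. For 6 of 14 keratinocyte markers it ran from 4.65 to 4.72 on siDicer and from 4.76 to 4.78 on siScr arrays, and for 3 of 8 endothelial markers from 4.08 to 4.17 on siDicer and from 4.15 to 4.20 on siScr arrays. Immune cell markers averaged from 4.41 to 4.44 on siDicer and from 4.52 to 4.55 on siScr arrays (8 of 12 measured). The highest signals were 6.81 for Flg and 5.68 for Sfn in the keratinocyte list, 5.34 for Tie1 and 3.91 for Tek in the endothelial list, and 5.38 for C1qa and 5.21 for Laptm5 in the immune list, and no gene of these 3 lists passed. The part of these shifts in the results below was not tested. As a gauge of background, the 95th percentile of 407 olfactory and vomeronasal receptor genes was 4.14.

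In pigment cells, melanocortin peptides bind a receptor that couples to the stimulatory G protein. The G protein raises cAMP, cAMP frees the catalytic subunits of protein kinase A, and the kinase phosphorylates the transcription factor CREB, which binds cAMP response elements (CREs) in target promoters. Agouti signalling protein, encoded by Asip, blocks the receptor and turns melanin from black to yellow, and needs attractin for this. Phosphodiesterases end the signal by degrading cAMP. Endothelin 3 acts through a receptor other than that of the melanocortins and sustains melanocyte precursors.

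To show where CREB could meet these genes, the 250 bases before each RefSeq start of the 9 genes were searched for the CRE half-site TGACG, also as its reverse complement CGTCA, and for the full element TGACGTCA. RefSeq listed 18 windows for the 9 genes on build GRCm38.p6, some of them overlapping. None held the full element, which occurs in 1.55% of 32851 windows of that length over all genes. A half-site, which every full element contains on both strands, was present in 5 of the 18 windows, against 17.8% of all windows. Overlapping windows of Gnas share a site, so these were 4 distinct half-sites. They belonged to 3 of the 9 genes, Gnas, Prkacb and Pde4b, while 19.8% of all 27025 genes had one in any window. Which start the probe sets read is not known, and a match is a description of letters only.

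The windows of Pde4b and Prkacb that hold a half-site are shown with that of Creb1, the gene with the largest difference below, which holds none. Those of Nr4a2 and Nr4a3, cAMP-responsive genes described further on, hold 4 half-sites each, and both were chosen for display after their values and windows were seen. Of all 32851 windows 0.137% hold 4 or more. The 4 windows of Ece1, which with Nr4a2 passed the test given below, hold 0. Sequences run 5′ to 3′ on the gene's strand, with half-sites in capitals. They lie at chr4:102421305-102421554 (plus strand), chr3:146812947-146813196 (minus), chr1:64532554-64532803 (plus), chr2:57124004-57124253 (minus) and chr4:48045055-48045304 (plus).
Pde4b: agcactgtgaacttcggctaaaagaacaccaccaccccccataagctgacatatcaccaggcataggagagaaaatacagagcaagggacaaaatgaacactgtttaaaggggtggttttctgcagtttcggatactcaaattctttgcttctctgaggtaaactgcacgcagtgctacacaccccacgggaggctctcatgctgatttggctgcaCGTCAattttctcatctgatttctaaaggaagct
Prkacb: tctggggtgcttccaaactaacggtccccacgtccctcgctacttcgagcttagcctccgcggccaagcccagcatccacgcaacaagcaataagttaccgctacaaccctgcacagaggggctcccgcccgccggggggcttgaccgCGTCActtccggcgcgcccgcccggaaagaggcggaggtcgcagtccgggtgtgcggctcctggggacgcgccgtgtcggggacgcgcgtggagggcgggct
Creb1: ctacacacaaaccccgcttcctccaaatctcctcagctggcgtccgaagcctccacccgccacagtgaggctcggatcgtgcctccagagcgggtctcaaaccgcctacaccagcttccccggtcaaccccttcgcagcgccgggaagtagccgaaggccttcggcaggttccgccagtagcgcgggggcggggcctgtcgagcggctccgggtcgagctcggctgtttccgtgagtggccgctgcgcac
Nr4a2: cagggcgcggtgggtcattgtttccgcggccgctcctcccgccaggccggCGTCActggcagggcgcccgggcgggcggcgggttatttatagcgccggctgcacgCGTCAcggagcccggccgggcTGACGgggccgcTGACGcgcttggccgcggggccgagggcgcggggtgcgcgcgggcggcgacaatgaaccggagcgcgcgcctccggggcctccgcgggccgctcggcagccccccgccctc
Nr4a3: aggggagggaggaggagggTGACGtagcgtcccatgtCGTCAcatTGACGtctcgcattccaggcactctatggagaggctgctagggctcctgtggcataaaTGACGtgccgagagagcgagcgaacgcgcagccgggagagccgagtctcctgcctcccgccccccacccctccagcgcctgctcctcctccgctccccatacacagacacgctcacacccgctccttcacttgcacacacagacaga
The half-site began 34 bases before the start in Pde4b and 102 in Prkacb. In the Gnas windows, not shown, half-sites began 38, 57 and 216 bases before the start, the first 2 being the shared site. In Nr4a2 half-sites began 200, 144, 123 and 111 bases before the start, and in Nr4a3 231, 213, 205 and 147.

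None of the 8 genes passed the threshold between siDicer and siScr cells, an adjusted p under 0.05 in limma with replicate number as a block. Over all probe sets 0.995% passed. Without the block the count was again 0 of 8, against 0.214% of all probe sets. At an unadjusted p under 0.05 it was 0 of 8 in both fits, against 15.7% and 10.2%. Of 9732 probe sets above the background gauge, as all 8 genes were, 2047 and 1318 had such a p in limma. Log2 differences, siDicer minus siScr, ran from -0.07 for Edn3 to 0.10 for Creb1, and 6 of 8 were above 0, with a median of 0.06. Over all probe sets 44.4% were above 0 and the median was -0.01. Among those above the background gauge 47.6% were above 0. The 95% intervals of the 8 genes reached from -0.22 to 0.24 at their widest, which is 0.861 to 1.18 times the siScr signal. Background signal compresses such differences in dim probe sets, and an interval does not show that the groups were alike. In whole cultures a change in the share of cells and a change in RNA per cell cannot be told apart.

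**Figure D1:**
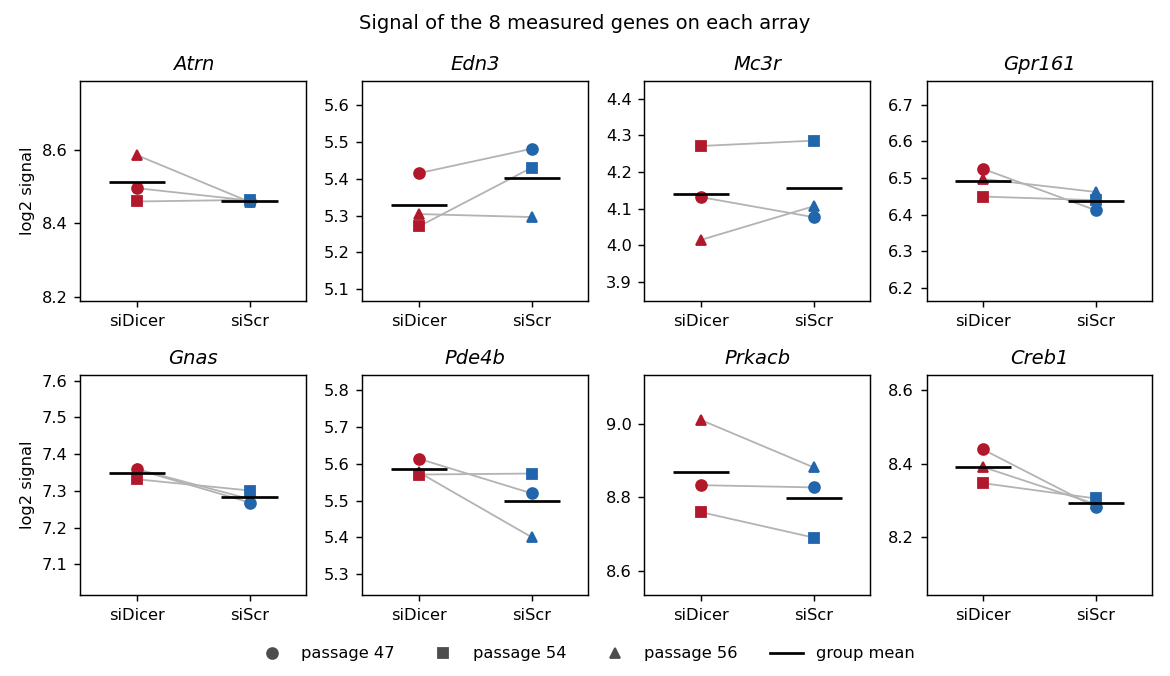
Log2 signal of each gene on each array (vertical axes, all spanning the same range of log2 units), siDicer left and siScr right. Symbols mark the passage, grey lines join arrays of the same passage and black bars are group means. In Gnas and Creb1 the 3 siDicer arrays lie above the 3 siScr arrays, and in the other 6 genes the groups overlap.

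Attractin, the product of Atrn, is a membrane protein that agouti signalling needs and whose loss darkens the mouse coat. Atrn had log2 signals of 8.50, 8.46 and 8.59 in siDicer cells at passages 47, 54 and 56, against 8.46, 8.46 and 8.46 in siScr cells. The siScr arrays lay closer together than those of any other gene here, with an SD of 0.003, and the passage 54 arrays were level. The difference was 0.05 ± 0.06 (SE), with a 95% interval from -0.09 to 0.19 (limma, adjusted p = 0.693).

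Edn3 encodes endothelin 3, a secreted peptide. Its log2 signals were 5.42, 5.27 and 5.30 in siDicer cells and 5.48, 5.43 and 5.30 in siScr cells, in order of passage. The groups overlapped, and siDicer was lower at passages 47 and 54 and level at 56. The difference of -0.07 ± 0.06 (SE) had an interval from -0.22 to 0.07 (limma, adjusted p = 0.589). It was the lowest of the 8 differences.

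Among the receptors, Mc3r encodes a melanocortin receptor known mainly from the brain and energy balance. It had log2 signals of 4.13, 4.27 and 4.01 in siDicer cells and 4.08, 4.29 and 4.11 in siScr cells. Its mean of 4.15 lay at the edge of the receptor gauge of 4.14, so this probe set read little above background in either group. The difference was -0.02 ± 0.06 (SE; interval -0.16 to 0.12; limma, adjusted p = 0.911), and it turned to 0.01 after quantile and 0.02 after cyclic loess normalization.

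Gpr161, an orphan receptor of the primary cilium that raises cAMP and holds back Hedgehog signalling, had log2 signals of 6.52, 6.45 and 6.50 in siDicer cells and 6.41, 6.44 and 6.46 in siScr cells. It was higher in siDicer at all 3 passages, by 0.11, 0.01 and 0.04, but the groups overlapped. The difference was 0.05 ± 0.06 (SE; interval -0.08 to 0.19; limma, adjusted p = 0.681).

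Gnas, an imprinted locus whose products include the stimulatory G protein alpha subunit, had log2 signals of 7.36, 7.33 and 7.36 in siDicer cells against 7.27, 7.30 and 7.28 in siScr cells. All siDicer arrays lay above all siScr arrays. The difference was 0.07 ± 0.05 (SE; interval -0.06 to 0.20; limma, adjusted p = 0.581), which is 1.05-fold. One probe set stands for the locus, so its several transcripts were not separated.

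Pde4b encodes a phosphodiesterase that degrades cAMP. Its log2 signals were 5.61, 5.57 and 5.58 in siDicer cells and 5.52, 5.57 and 5.40 in siScr cells. The passage 54 arrays were level, and the low siScr array at passage 56 made the widest gap, 0.18. The difference was 0.09 ± 0.06 (SE; interval -0.06 to 0.23; limma, adjusted p = 0.514).

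Prkacb encodes the beta catalytic subunit of protein kinase A. It had log2 signals of 8.83, 8.76 and 9.01 in siDicer cells and 8.83, 8.69 and 8.88 in siScr cells. The passages differed more than the groups did, and siDicer was higher at each, by 0.01, 0.07 and 0.13. The difference was 0.07 ± 0.06 (SE), with an interval from -0.07 to 0.20 (limma, adjusted p = 0.593). Without the block the interval widened to -0.13 to 0.26.

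Creb1, which encodes the transcription factor CREB, showed the largest difference of the 8 and the smallest p in the paired fit on the deposited values. After quantile and cyclic loess normalization Pde4b had a larger difference, 0.0901 and 0.103 against 0.0719 and 0.0682 for Creb1. The deposited log2 signals of Creb1 were 8.44, 8.35 and 8.39 in siDicer cells against 8.28, 8.30 and 8.29 in siScr cells, without overlap. The difference was 0.10 ± 0.06 (SE; interval -0.03 to 0.24), or 1.07-fold, with an adjusted p of 0.437 in limma (unadjusted p = 0.121).

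Gnas and Creb1 were thus the 2 of 8 genes whose groups did not overlap, both with siDicer higher. Of all probe sets 7.57% were arranged this way, and 15.9% did not overlap in either direction. Gnas, Prkacb, Creb1 and Gpr161 were higher in siDicer at all 3 passages, 4 of 8 genes, against 17.9% of all probe sets. None of the 8 was lower at all 3 passages, against 22.6% of all probe sets. These shares take in dim probe sets, and probe sets above the gauge were not counted apart. Gene by gene the intervals had half-widths from 0.13 to 0.15 log2 units, close to the median of 0.15 over all probe sets. The fit draws each variance toward one shared by all probe sets, so these half-widths do not measure the precision of each gene alone.

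**Figure D2:**
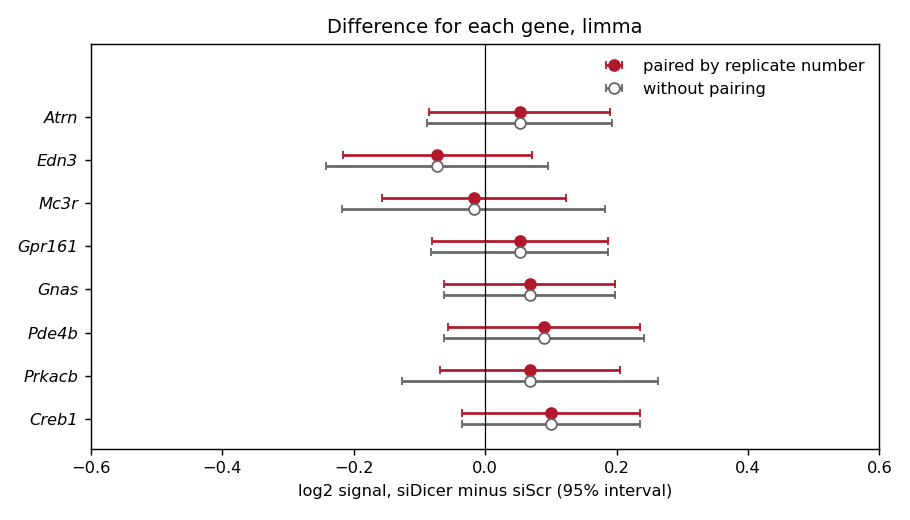
Log2 signal in siDicer minus siScr for each gene (horizontal axis), ordered from agouti partner and ligand through receptors to kinase and transcription factor. Points are estimates and bars 95% intervals from limma, filled with pairing by replicate number and open without it. Every interval in both fits includes 0, and the bounds lie between -0.24 and 0.26.

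For 4 of the genes, Prkacb, Mc3r, Edn3 and Atrn, the passage means spread at least as far as the group means. In limma's F test over the passages, with the siRNA group in the fit, 0 of 8 genes passed an adjusted p under 0.05, against 0.586% of all probe sets. Mc3r and Prkacb had the smallest p of the 8, and neither passed. Prkacb averaged 8.83 at passage 47, 8.72 at 54 and 8.95 at 56 (n = 2 arrays each; limma, adjusted p = 0.338), in the same order in both groups. Mc3r averaged 4.10, 4.28 and 4.06 (limma, adjusted p = 0.334) and was highest at passage 54 in both groups. Edn3 averaged 5.45, 5.35 and 5.30, highest at passage 47 in both (limma, adjusted p = 0.517). Gnas had a range of only 0.01 between passage means. Passage and any other difference between the replicate numbers cannot be told apart.

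**Figure D3:**
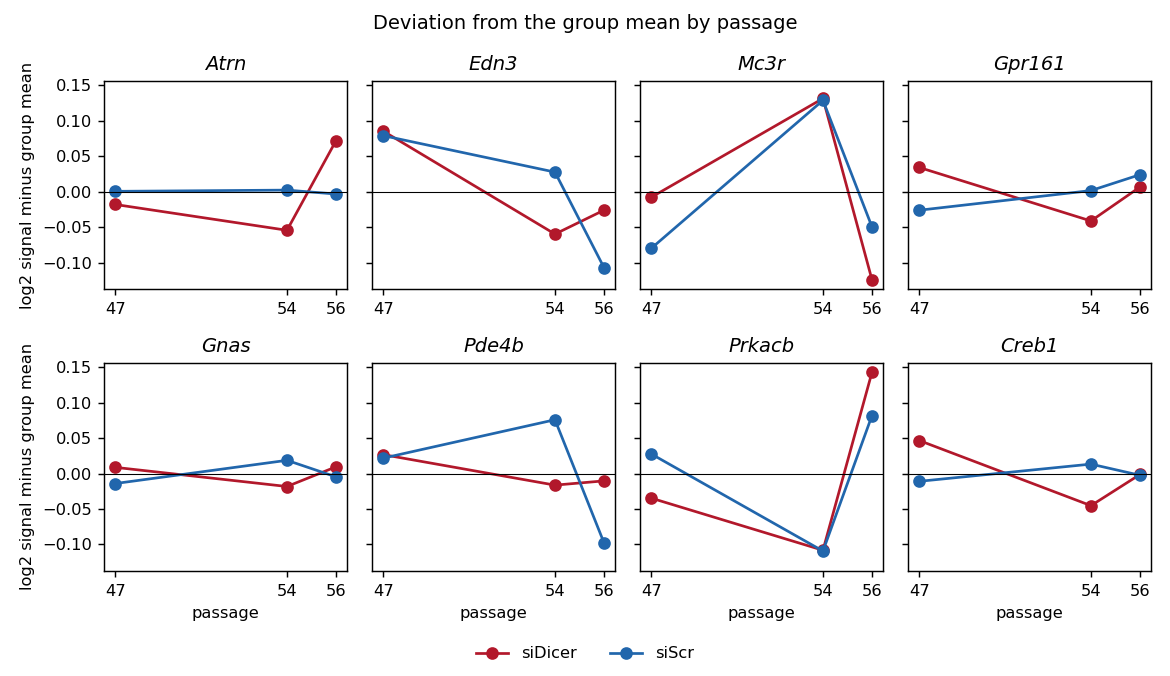
Log2 signal of each gene minus the mean of its own group (vertical axis, shared) against culture passage (horizontal axis), with siDicer in red and siScr in blue. The lines run together for Prkacb and Mc3r, whose passage means span 0.22 log2 units each, and stay near 0 for Gnas.

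The genes whose signal most resembled that of Creb1 and Pde4b, the 2 of smallest p, were found by Pearson correlation over the 6 arrays among 5257 named genes above the receptor gauge. For Creb1 they were Ergic3 (r = 0.99), Uckl1 (0.99) and Mreg (0.97), and 92 genes exceeded 0.9. For Pde4b they were Cyp2u1 (0.99), Bahd1 (0.98) and Dlgap4 (0.96), and 21 genes exceeded 0.9. With 6 arrays of 2 groups these values only describe the arrays. Of the 6 genes 1 passed the threshold, Mreg, which encodes melanoregulin, a regulator of melanosome transfer. It was 0.62 higher in siDicer on the log2 scale (limma, adjusted p = 0.0435 with the block and 0.0877 without it).

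Of 221 other genes listed for these pathways 62 were measured. Of these 2 rose, 0 fell and 60 did not pass, against 0.757% higher and 0.238% lower over all probe sets. Their median log2 difference was -0.03, beside -0.01 over all probe sets. Without the block none passed in limma, against 0.214% of all probe sets. At an unadjusted p under 0.05 in limma there were 19 of 62 with the block, against 15.7% of all probe sets. Without the block there were 8 of 62, against 10.2%. Of the 62 genes 52 lay above the receptor gauge. Among all 9732 probe sets above that gauge, 2047 had such a p in limma with the block and 1318 without it.

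In the endothelin list 1 of 6 measured genes rose, Ece1, the protease that cuts inactive big endothelins to active peptides. Its log2 signals were 7.65, 8.06 and 7.67 in siDicer cells against 7.34, 7.65 and 7.18 in siScr cells, in order of passage. The siDicer arrays were higher at every passage, by 0.31, 0.41 and 0.49, while the lowest siDicer array stood only just above the highest siScr array. The difference was 0.40 ± 0.06 (SE), or 1.32-fold (interval 1.19 to 1.46; limma, adjusted p = 0.0489). The adjusted p was 0.409 without the block, 0.0682 after quantile and 0.0642 after cyclic loess normalization, and 0.217 and 0.209 without replicates 2 and 3.

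Among 13 measured cAMP-responsive target genes 1 rose, Nr4a2, a nuclear receptor of the immediate early class. It had log2 signals of 7.61, 7.52 and 7.57 in siDicer cells and 7.23, 7.18 and 7.16 in siScr cells. The groups stood clearly apart, with an SD of 0.04 within each. The difference was 0.38 ± 0.05 (SE), or 1.30-fold (interval 1.19 to 1.42; limma, adjusted p = 0.0449). The adjusted p was 0.0605 without the block, 0.067 after quantile and 0.0561 after cyclic loess normalization, and from 0.0834 to 0.198 when 1 replicate number was left out. Nr4a3, its relative whose promoter window holds as many half-sites, is named for that window after its values were seen. It had a difference of 0.13 ± 0.06 (SE; limma, adjusted p = 0.345) and varied with passage, averaging 9.01, 8.32 and 8.46 (limma F test, adjusted p = 0.0316). The median difference of the 13 targets was -0.03.

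**Figure D4:**
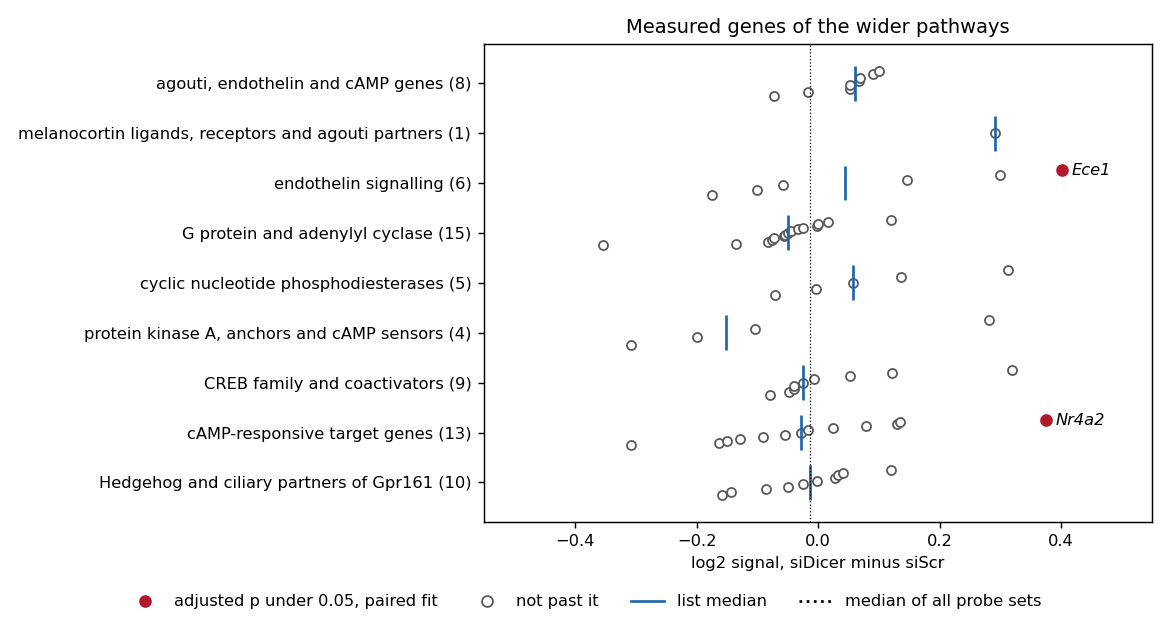
Log2 signal in siDicer minus siScr (horizontal axis) for each measured gene of the 8 agouti, endothelin and cAMP genes and of 8 pathway lists, with the number measured in brackets. Filled points passed an adjusted p under 0.05 in the paired limma fit and open points did not, blue bars are list medians and the dotted line is the median of all probe sets. Ece1 and Nr4a2 are the 2 filled points.

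In the remaining lists no gene passed in the paired fit over all probe sets, and the genes of smallest p are given by value. Some of them passed in alternatives given at the end. Of 15 genes for G protein subunits, cyclases and their regulators, Gnb4, a beta subunit, had a difference of -0.35 ± 0.06 (SE; limma, adjusted p = 0.0604). Its signals ran from 7.54 to 7.75 in siDicer cells and from 7.93 to 8.15 in siScr cells, without overlap. Rgs7, which speeds the turn-off of G proteins, differed by -0.14 at a mean of 4.01, under the gauge. The list's median was -0.05.

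Of 5 other phosphodiesterase-list genes, Pde5a, which degrades cyclic GMP, had a difference of 0.31 and Pde7a, which degrades cAMP, one of 0.14 (limma, adjusted p = 0.0931 and 0.295). Pde5a stood highest at passage 56 in both groups. Among 4 genes of protein kinase A inhibitors and cAMP sensors the small GTPase Rap1a differed by -0.31 and its exchange factor Rapgef2 by 0.28 (limma, adjusted p = 0.066 and 0.0988), each without overlap between groups. Of 9 genes in the CREB family list, Atf6, a sensor of unfolded protein in the endoplasmic reticulum, differed by 0.32 and the membrane-bound factor Creb3 by 0.12 (limma, adjusted p = 0.066 and 0.345). The other CREB-list members lay between -0.08 and 0.05.

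Of 15 listed melanocortin ligands, receptors and agouti partners 1 was measured, Sdc3. This syndecan, known from the mouse hypothalamus as a partner of agouti-related peptide, had signals of 8.37, 8.35 and 8.42 in siDicer cells and 8.04, 8.09 and 8.12 in siScr cells. The groups did not overlap, and the difference of 0.29 ± 0.05 (SE) missed the threshold (limma, adjusted p = 0.0786). Among 10 Hedgehog and ciliary genes linked to Gpr161, the ligand gene Ihh differed by -0.16 and the transport gene Ift80 by -0.14 (limma, adjusted p = 0.31 and 0.274), and the list's median was -0.01.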

How the data were processed

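RNA from 6 Melan-a cultures, 3 siDicer and 3 siScr, was hybridised to mouse Clariom D arrays with WT PLUS labelling, per the labels' protocols. The authors deposited a log2 signal for each probe set and array. The submitters' processing notes name Affymetrix Expression Console. No version, background correction, normalization or genome build is named in the sources used here. Array medians lay between 4.58 and 4.64, so the arrays had probably been scaled to each other, and a shift common to most transcripts would then not show. The table held 16383 probe sets, of which 7530 had 1 gene symbol in the platform annotation (230 updated through Entrez numbers). Of these 7439 lay on chromosomes 1 to 4 in the RefSeq table, so most genes of these pathways were not analysed here. Precision is limited by the number of arrays.

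Groups were compared over all probe sets by lmFit and eBayes of limma 3.58.1 (R 4.3.3), siDicer minus siScr, with replicate number as a block. P-values were adjusted by Benjamini-Hochberg. The pairing comes from the labels, which give same-numbered arrays 1 passage. Deviations from group means correlated with r of 0.44, 0.41 and 0.24 between same-numbered arrays. In the paired fit, p-values measure the spread of the differences between same-numbered cultures, described as biological replicates. Without the block, p-values measure the spread between cultures of a group. eBayes draws each probe set's variance toward a value shared by all, with 4.33 of 6.33 degrees of freedom from that shared value. The script was tested on simulated data. The genes, lists and tests were chosen with earlier results of these data known. The text names all 9 genes, in each pathway list the genes past the threshold or else those 2 of smallest p, in each marker list those 2 of highest signal, and the 3 genes most like each of 2 members. Sox2 and Nr4a3 were named after their values were seen. Alternatives changed the block, normalization, probe sets tested, variance model, weights, row choice, threshold and replicates. Promoter windows are those of RefSeq on GRCm38.p6.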

Additional observations from a re-analysis of the deposited data

How the results depend on the processing

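The count of 0 of 8 genes past the threshold held in all alternatives run (0 of 7 where Mc3r was not tested). The passage test was rerun only under other normalizations and other choices of probe sets, and its count stayed at 0. Of 103 recomputed differences of the 8 genes 100 kept their direction and 0 passed in limma. Those that reversed were all of Mc3r, 0.00528 after quantile and 0.0173 after cyclic loess normalization, and from -0.0533 to 0.0201 on leaving out 1 replicate number, reversed without replicate 3. Sizes moved more than directions did. Over the alternatives Creb1 ran from 0.0682 to 0.13, Pde4b from 0.0458 to 0.136 and Prkacb from 0.0319 to 0.0994. Gnas ran from 0.0194 to 0.0861, Gpr161 from 0.0226 to 0.0742, Atrn from 0.0147 to 0.0806 and Edn3 from -0.113 to -0.0292. Without the replicate block 35 probe sets and 0 of 62 pathway genes passed, against 163 and 2 with it. Probe sets past the threshold numbered 84 after quantile and 93 after cyclic loess normalization, with 0 pathway genes each. Testing fewer probe sets gave 388 of 8191 (level above the median probe set, where Mc3r was not tested) and 281 of 7530 (1 symbol). The pathway genes that passed were 8 of 47 and 8 of 62. An intensity trend gave 302 and 7, and a threshold of 0.1 gave 378 and 8. Leaving out 1 replicate number gave 0 to 157 probe sets and 0 to 1 pathway genes. The 0 arose without replicate 2 (2171 at an unadjusted p under 0.05 in limma) and without replicate 3 (1814). These fits have fewer samples. Ece1 and Nr4a2 kept their direction in every alternative and passed in 8 and 7 of 13. Gnb4, Rap1a, Atf6, Rapgef2 and Sdc3 each passed in 3 of 13 and Pde5a in 2, among them both fits on fewer probe sets by level or symbol. The cause of the other shifts was not tested.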
